A study of Rattus norvegicus with 10 samples.

Results

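The Slc25 genes encode the mitochondrial carrier family, and they were described in rat liver as the probe sets with a single annotated gene symbol beginning Slc25a and a digit. The rule found 40 genes with 58 probe sets, of 14217 genes with a single symbol in the deposited table, and each gene was represented by the probe set with the highest mean log2(intensity + 16) over the 10 arrays. Of these, 36 lay above the filter on dim probe sets, as did 10328 genes in all, and Slc25a18, Slc25a31, Slc25a41 and Slc25a53 lay below it. The livers came from 5 Wistar/ST rats on a high-fat diet given dried mulberry leaf powder at 500 mg per kg body weight a day, and from 5 rats of the same strain and diet given 0 mg per kg a day. Dosing was by gastric probe after an overnight fast, with 0.5% carboxymethylcellulose as the carrier liquid, and the livers were taken after 7 weeks. Every rat of both groups therefore received the high-fat diet, and a group on another diet was not analysed here. Age and sex were not given in the sources used here.

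Mitochondrial carriers sit in the inner mitochondrial membrane, which is otherwise closed to most metabolites, and usually exchange a molecule in the matrix for another in the cytosol. In liver they are known for exporting ATP, for handing citrate to fatty acid synthesis, for admitting long-chain acylcarnitines to beta-oxidation, and for linking the mitochondrial and cytosolic steps of the urea cycle. A few members lie elsewhere, among them Slc25a17 in peroxisomes and Slc25a46 in the mitochondrial outer membrane.

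The 250 bases before the annotated start of 4 members are shown first: Slc25a16, the member with the smallest unadjusted p in the comparison of the groups, Slc25a25, the member with the highest difference, and Slc25a3 with Slc25a5. The levels of the last pair went together across rats by Pearson r but did not pass by Spearman rho, with the limits given below. Sequences and coordinates are RefSeq's for the build GRCr8. Capitals mark the GC box (GGGCGG on either strand, the element that Sp1 proteins are known to bind) in Slc25a16, Slc25a3 and Slc25a5, and the cAMP response element (TGACGTCA, the element of CREB proteins) in Slc25a25.
Slc25a16, chr20:25715008-25715257, minus strand: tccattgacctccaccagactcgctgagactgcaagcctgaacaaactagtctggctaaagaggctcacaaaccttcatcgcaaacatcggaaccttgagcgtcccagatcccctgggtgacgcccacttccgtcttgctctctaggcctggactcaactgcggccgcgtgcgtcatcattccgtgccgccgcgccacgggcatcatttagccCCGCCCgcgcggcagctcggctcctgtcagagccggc
Slc25a25, chr3:36116582-36116831, minus strand: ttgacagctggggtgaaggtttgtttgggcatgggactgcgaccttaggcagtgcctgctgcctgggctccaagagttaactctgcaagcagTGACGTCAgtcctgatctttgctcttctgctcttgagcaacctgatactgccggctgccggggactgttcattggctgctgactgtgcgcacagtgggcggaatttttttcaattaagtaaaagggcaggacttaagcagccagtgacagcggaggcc
Slc25a3, chr7:27506628-27506877, minus strand: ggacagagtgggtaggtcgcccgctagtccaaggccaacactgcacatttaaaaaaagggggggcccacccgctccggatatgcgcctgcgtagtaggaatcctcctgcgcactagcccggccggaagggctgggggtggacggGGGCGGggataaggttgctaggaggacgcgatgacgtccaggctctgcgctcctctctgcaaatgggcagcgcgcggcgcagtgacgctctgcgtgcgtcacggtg
Slc25a5, chrX:120897366-120897615, plus strand: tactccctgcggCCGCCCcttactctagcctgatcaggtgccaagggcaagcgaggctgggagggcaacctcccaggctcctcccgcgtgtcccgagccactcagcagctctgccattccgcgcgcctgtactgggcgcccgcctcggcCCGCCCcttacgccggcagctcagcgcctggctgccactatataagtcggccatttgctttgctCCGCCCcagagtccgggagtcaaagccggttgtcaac

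The GC box, searched on both strands, occurred in such windows of 21 of the 34 members with an entry (61.8%), against 30.5% of all 33469 windows in the table. CCAAT, the element of the factor NF-Y, was found on either strand in 19 members (55.9%), against 34.02% of all windows. TATAAA, the letters of the TATA box, was found on either strand in 2 members (5.88%), Slc25a38 and Slc25a48, against 12.9% of all windows. The match of Slc25a38 began 228 bases before the start, and that of Slc25a48 began 116 bases before it on the antisense strand. The member windows thus held GC boxes and CCAAT more often, and TATAAA less often, than the table as a whole, with no test of the difference. TGACGTCA occurred in 2 members (5.88%), Slc25a25 and Slc25a33, against 1.59% of all windows. CACGTG, the E-box, occurred in 3 members (8.82%), Slc25a31, Slc25a33 and Slc25a48, against 5.59% of all windows. None of these motifs contains another. The median GC content was 58.0% for the members and 51.2% for all windows, and the median number of CpG pairs was 13 for the members and 5 for all windows. Slc25a39 had the highest GC content among the members at 76.4% and Slc25a21 the lowest at 40.8%. A match is a description of the letters in the window. Slc25a30, Slc25a32, Slc25a36, Slc25a37, Slc25a46 and Slc25a51l1 had no entry.

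The 10 arrays resembled one another to a like degree within and across the groups, with correlations of log2(intensity + 16) from 0.957 to 0.9751, a mean of 0.966 within groups and 0.967 across them. Each array had a trimmed mean intensity of 500, and the median intensity ran from 97.5 to 118. Hepatocyte markers were bright, with a summed intensity over 9 genes of 237879 to 288944 in mulberry rats and 233386 to 274360 in control rats. All 9 had a higher mean in mulberry livers, with a median difference of +0.039 in log2, while 51.3% of all genes were higher. For 0 of them was the adjusted limma p below 0.05. Markers of other liver cells were also above the filter, at 6 of 7 genes listed for Kupffer cells, 6 of 7 for endothelium and 6 of 6 for stellate cells. Of the bile duct list 2 of 5 were above it (Krt19 and Epcam, not Krt7 or Spp1), and of the adipocyte list 2 of 6 (Cfd and Cidea, not Adipoq, Plin1, Fabp4 or Ucp1). Of these markers, Cd68 at +0.39 and Cd14 at -0.38 (mulberry minus control, log2), both of the Kupffer cell list, had an unadjusted limma p below 0.05, in opposite directions, and their part in the member values was not tested. Muscle markers were above the filter for 0 of 6 genes, at a summed intensity of 67.3 to 310 in mulberry rats and 118 to 256 in control rats. In whole liver, fewer cells of a type and less RNA per cell cannot be told apart.

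No member differed between mulberry and control livers by the test over all probe sets. After adjustment, 0 of the 36 members passed a threshold of 0.05 in limma's moderated test, and neither did any of the 18625 probe sets tested (0%). The smallest adjusted p of all probe sets was 0.9999. At an unadjusted p below 0.05 there was 1 member of 36, Slc25a16, against 185 of 10328 genes (1.79%). For 0 members did the intensities of the groups fail to overlap, against 33 of 10328 genes (0.32%). These counts lie close to what all genes gave, and the family as a whole is described below by its sizes of difference.

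Differences are given throughout as mulberry minus control in log2(intensity + 16). Those of the members ran from -0.33 for Slc25a30 to +0.37 for Slc25a25, with a median of -0.012, while all genes had a median of +0.0035. The sign of the family's median was not stable, running from -0.038 to +0.023 as each rat was left out, and standing at -0.040 with a median shift and +0.023 with array weights. Of the 36 members, 15 had a higher mean in mulberry livers and 21 a lower one, whereas 51.3% of all genes were higher. The median absolute difference was 0.056 for the members and 0.083 for all genes, and 24 members (66.7%) lay within 0.1 of zero, compared with 57.6% of all genes. For 25 of the 36 members the 95% interval of the difference lay inside 0.5 log2 units on both sides of zero. The same held for 6696 of the 10328 genes, a like share, so it is not particular to the family. At this number of arrays a larger change of those 25 members lies outside the interval. For the other 11 members, among them Slc25a25 and Slc25a30, the interval reached beyond that bound on at least 1 side.

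**Figure D1:**
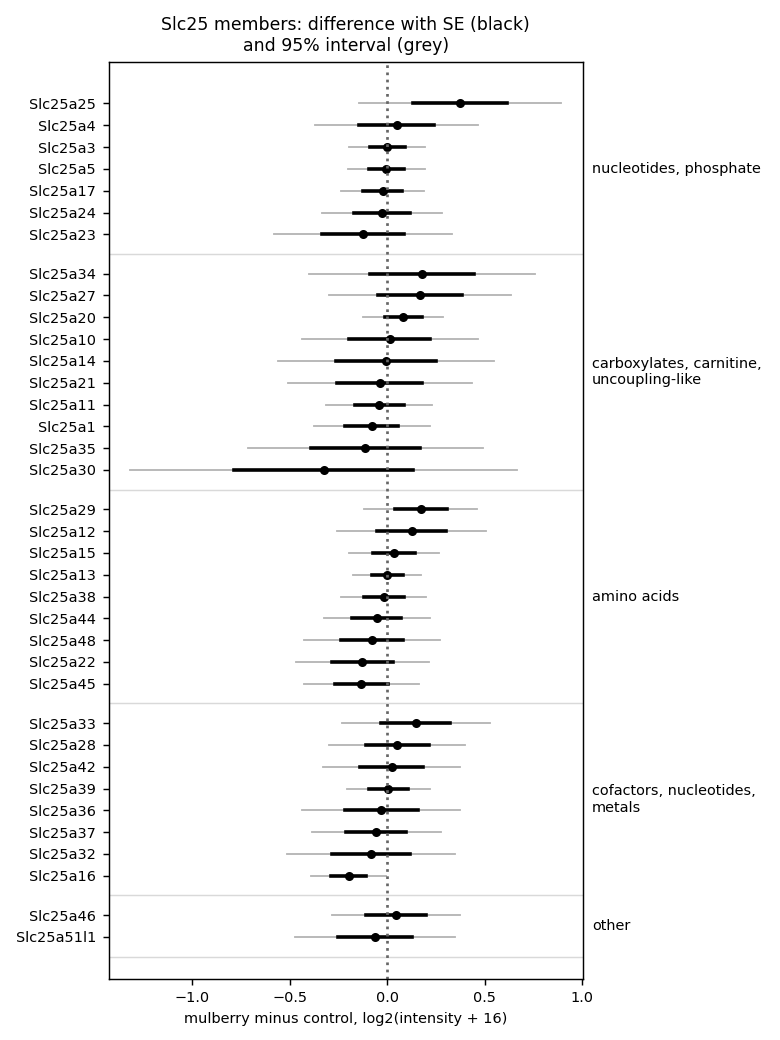
Differences of the 36 tested Slc25 members, mulberry minus control, in log2(intensity + 16) on the horizontal axis, with genes grouped by role. Points are the limma estimates over 5 mulberry and 5 control rats, black bars the SE and grey bars the 95% interval, which takes in zero for every member but Slc25a16, at -0.20.

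Carriers of ADP, ATP and phosphate feed ATP synthase and export its product. They were grouped here with the ATP-Mg carriers Slc25a23, Slc25a24 and Slc25a25 and with the peroxisomal Slc25a17. The 7 tested members of this class had 2 higher and 5 lower means, with a median difference of -0.0051, and 0 passed the adjusted test. Slc25a5, the widely expressed ADP/ATP carrier, had intensities of 17534, 17548, 16118, 18513 and 17302 in mulberry rats 1 to 5, against 15384, 15275, 20774, 18867 and 17555 in control rats 1 to 5. The highest and the lowest value both belonged to control rats, 3 and 2, and the mulberry rats lay between them. Its means were 17403 ± 856 in mulberry and 17571 ± 2345 in control livers (SD, n = 5 each), a difference of -0.0051 ± 0.092 (SE), with a 95% interval of -0.20 to 0.19. Slc25a3, which brings phosphate into the matrix, had intensities of 9124, 8744, 8372, 9795 and 8193 in mulberry rats and 7983, 8488, 10448, 9064 and 8384 in control rats. Again control rat 3 was highest and a control rat, 1, lowest. The difference of Slc25a3 was -0.0011 ± 0.089 (SE), with means of 8845 ± 640.2 in mulberry and 8873 ± 961 in control livers (SD, n = 5 each). Slc25a4, the ADP/ATP carrier typical of heart and skeletal muscle, had 176, 229.8, 278, 348 and 359.6 in mulberry rats, against 228, 232, 346, 239.6 and 271 in control rats. Mulberry rats held both ends of this range, and the difference was +0.048 ± 0.19 (SE), while the muscle markers stood below the filter as given above.

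Slc25a25 belongs to the calcium-regulated carriers that exchange ATP-Mg for phosphate and so set the adenine nucleotide content of the matrix. It had intensities of 3842, 3267, 4394, 2024 and 2487 in mulberry rats 1 to 5, against 1882, 3586, 1939, 3168 and 1830.0 in control rats 1 to 5. Mulberry rats 1 and 3 stood above every control rat, mulberry rats 4 and 5 stood below control rats 2 and 4, and the groups overlapped. Means were 3203 ± 966 in mulberry and 2481 ± 832 in control livers (SD, n = 5 each), and the difference of +0.37 ± 0.24 (SE) had a 95% interval of -0.15 to 0.89 and an unadjusted limma p of 0.145. As each rat was left out, the difference ran from +0.24 to +0.52, and the unadjusted limma p lay below 0.05 without mulberry rat 4 or without control rat 2. The spread of Slc25a25 between rats within groups, an SD of 0.458 log2 units, was at the 90.2nd percentile of all genes. Its relatives Slc25a23 and Slc25a24, with the same exchange, had differences of -0.13 ± 0.21 and -0.027 ± 0.14 (SE). Slc25a41, a relative without the calcium-binding part, lay below the filter at 58.0 ± 15.6 in mulberry and 56.1 ± 10.3 in control livers. Slc25a31, the ADP/ATP carrier of germ cells, was at 11.0 ± 4.88 in mulberry and 7.57 ± 3.71 in control livers, also below it. Slc25a17, the peroxisomal carrier of coenzyme A, FAD and NAD+, had a difference of -0.025 ± 0.098 (SE).

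Carriers of carboxylates and carnitine, with the uncoupling-like members placed beside them, came to 10 tested genes. Of these, 4 had a higher and 6 a lower mean in mulberry livers, the median difference was -0.022, and 0 passed the adjusted test. Slc25a1, the citrate carrier that supplies acetyl units for fatty acid synthesis, had intensities of 1839, 3126, 2389, 1886 and 2529 in mulberry rats and 2315, 2277, 2488, 2682 and 2471 in control rats. The mulberry rats spread more widely than the control rats, with rat 2 above and rats 1 and 4 below all of them. Its difference was -0.081 ± 0.14 (SE), with means of 2354 ± 527 in mulberry and 2447 ± 161 in control livers (SD, n = 5 each). Slc25a10, the dicarboxylate carrier that exchanges malate or succinate for phosphate, had 1839.7, 3047, 3498, 2201 and 3711 in mulberry rats, against 1865, 3363, 2765, 2682 and 3304 in control rats. Rat 1 was the lowest of either group, and the difference was +0.012 ± 0.21 (SE). Slc25a11, which exchanges 2-oxoglutarate for malate in the malate-aspartate shuttle, had 2891, 3673, 3194, 2838 and 3204 in mulberry rats, against 2597, 3088, 3989, 3755 and 2972 in control rats. Control rat 3 was highest and control rat 1 lowest, and the difference was -0.042 ± 0.13 (SE).

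Slc25a20, the carnitine/acylcarnitine carrier, admits long-chain acyl groups to beta-oxidation. Its intensities were 4113, 3886, 3940.3, 4225 and 3279.6 in mulberry rats 1 to 5, against 3485, 3596, 4166, 3388 and 3729 in control rats 1 to 5. Mulberry rats 1 to 4 stood above control rats 1, 2, 4 and 5, whereas mulberry rat 5 was the lowest of all 10. Means of 3889 ± 367 in mulberry and 3673 ± 304 in control livers (SD, n = 5 each) gave a difference of +0.080 ± 0.095 (SE), with a 95% interval of -0.12 to 0.29. Slc25a21, the oxodicarboxylate carrier of lysine and tryptophan breakdown, had a difference of -0.038 ± 0.22 (SE).

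Slc25a27, a dim member of the uncoupling-like carriers, had intensities of 87.4, 51.4, 92.1, 87.4 and 50.6 in mulberry rats, against 50.7, 59.2, 64.2, 56.7 and 83.1 in control rats. Mulberry rats 1, 3 and 4 were above every control rat and mulberry rat 5 was below every one, with a difference of +0.17 ± 0.22 (SE). Slc25a14, another uncoupling-like carrier, was at -0.0064 ± 0.26 (SE). Slc25a34 and Slc25a35, close relatives of each other, had differences of +0.18 ± 0.27 and -0.11 ± 0.28 (SE).

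Slc25a30, the last of the uncoupling-like carriers, differed among rats far more than between groups and is described with the values of every rat for that reason, a choice made after its values were seen. It had intensities of 2076, 1705, 8165, 6919 and 7539.6 in mulberry rats 1 to 5, against 3723, 6269.6, 10889, 5436 and 3406 in control rats 1 to 5. Mulberry rats 1 and 2 were the lowest of all 10, control rat 3 was the highest, and the other mulberry rats lay among the higher control rats. The highest rat was 6.39-fold above the lowest. The mulberry minus control difference was -0.33 ± 0.46 (SE), with a 95% interval of -1.32 to 0.67. Its SD within groups was 0.909 log2 units, at the 99.2nd percentile of all genes, while genes within 0.5 log2 units of its mean level had a median SD of 0.186. A second probe set of Slc25a30 gave 574, 298, 2099.9, 2531 and 1989 in mulberry rats, against 1056, 1364, 2974, 1680.3 and 833 in control rats. Both probe sets placed mulberry rat 2 lowest and control rat 3 highest.

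**Figure D2:**
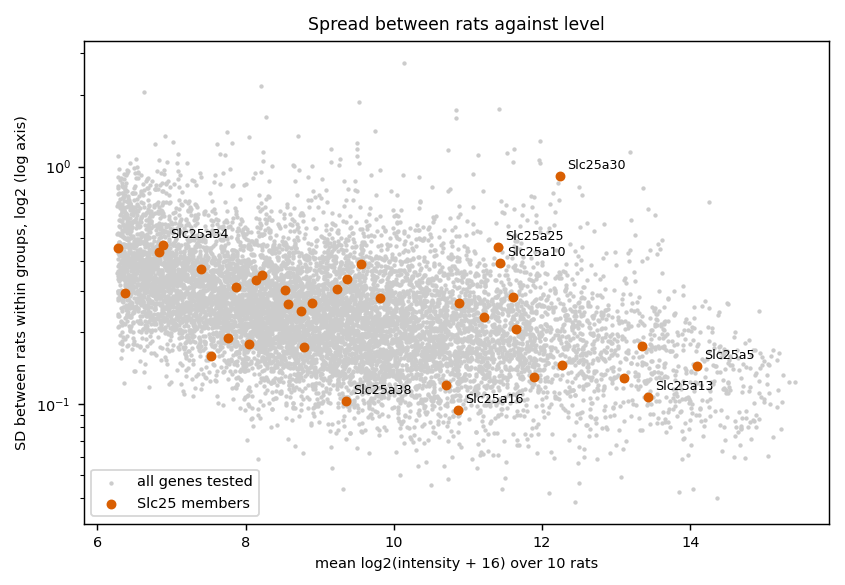
Spread between rats against level for the 36 tested Slc25 members (orange) and all 10328 tested genes (grey), with the mean log2(intensity + 16) over 10 rats on the horizontal axis and the SD within groups in log2 units on a logarithmic vertical axis. Slc25a30 stands high for its level at an SD of 0.909, and Slc25a16 low at 0.094.

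Amino acid carriers serve the urea cycle, the malate-aspartate shuttle and heme synthesis. The 9 tested members had 4 higher and 5 lower means, a median difference of -0.018 and 0 passes of the adjusted test. Slc25a13, citrin, the aspartate/glutamate carrier of liver, had intensities of 10487, 12347, 11142, 9779 and 11686 in mulberry rats 1 to 5, against 10287, 11274, 11883, 10968 and 10906 in control rats 1 to 5. Mulberry rats gave both the highest and the lowest value. Means were 11088 ± 1002 in mulberry and 11064 ± 582 in control livers (SD, n = 5 each), the difference was 7.19e-05 ± 0.081 (SE), and the 95% interval ran from -0.17 to 0.17. Slc25a12, the aspartate/glutamate carrier typical of brain and muscle, had a difference of +0.12 ± 0.18 (SE). Slc25a15, which carries ornithine into the matrix for the urea cycle, had 9468, 10088, 9852, 13338 and 10307 in mulberry rats, against 9124, 9662, 10271, 12066 and 10486 in control rats. Rat 4 was the highest of its group in both groups, and the difference was +0.035 ± 0.11 (SE).

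Slc25a22, a glutamate carrier, had intensities of 2891, 3003, 2663, 4389.9 and 2279.7 in mulberry rats, against 3133, 4089, 3270.1, 2979 and 2896 in control rats. Mulberry rat 4 was the highest and mulberry rat 5 the lowest of all, and the difference was -0.13 ± 0.16 (SE). The other glutamate carrier, Slc25a18, lay below the filter at 6.38 ± 2.48 in mulberry and 6.09 ± 2.22 in control livers. Slc25a29, a carrier of basic amino acids, had 225, 301, 290.0, 243 and 276 in mulberry rats, against 296, 234, 208, 213 and 229 in control rats. Mulberry rats 2 to 5 stood above control rats 2 to 5, but control rat 1 was exceeded only by mulberry rat 2. Its means of 267 ± 31.9 in mulberry and 236 ± 35.2 in control livers (SD, n = 5 each) gave a difference of +0.17 ± 0.13 (SE), and the unadjusted limma p was 0.224. Slc25a45 had 172, 148, 155, 189 and 140.4 in mulberry rats, against 214, 155, 167, 169.7 and 185 in control rats. Control rat 1 was highest, mulberry rats 2, 3 and 5 were below every control rat, rat 3 by less than 1 intensity unit, and the difference was -0.13 ± 0.14 (SE). Slc25a48 had a difference of -0.079 ± 0.16 (SE), Slc25a44, a carrier of branched-chain amino acids, one of -0.055 ± 0.13 (SE), and Slc25a38, the glycine carrier of heme synthesis, one of -0.018 ± 0.10 (SE).

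Carriers of cofactors, nucleotides and metals came to 8 tested genes, with 4 higher and 4 lower means, a median difference of -0.013 and 0 passes of the adjusted test. Slc25a16, linked to the import of coenzyme A from work in yeast and human cells, was the member with the smallest unadjusted p. It had intensities of 1659, 1837, 1852, 1611 and 1682 in mulberry rats 1 to 5, against 2090.4, 1787, 1990.3, 2127 and 1938 in control rats 1 to 5. Mulberry rats 1, 4 and 5 lay below every control rat, and mulberry rats 2 and 3 lay above control rat 2 alone, so the groups overlapped. Means were 1728 ± 109 in mulberry and 1987 ± 135 in control livers (SD, n = 5 each), 0.871-fold in mulberry over control. The difference of -0.20 ± 0.090 (SE) had a 95% interval of -0.39 to -0.0049, an unadjusted limma p of 0.0452 and an adjusted limma p of 0.9999. The unadjusted limma p ran from 0.0295 to 0.0982 over 19 alternatives, of which 10 left out a rat and the rest changed the processing. It was below 0.05 under 8 of the 19, and 3 of these 8 left out a rat. Its SD within groups, 0.094 log2 units, was at the 2.95th percentile of all genes, and its 95% interval was among the narrower ones of the family. Slc25a42, a carrier of coenzyme A and adenine nucleotides, had a difference of +0.022 ± 0.16 (SE).

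Slc25a33, a pyrimidine nucleotide carrier, had intensities of 539.9, 656, 568, 756 and 596 in mulberry rats, against 383, 464, 755, 669.8 and 601 in control rats. Control rats 1 and 2 were the lowest, mulberry rat 4 and control rat 3 stood side by side at the top, and the difference was +0.15 ± 0.18 (SE). Its relative Slc25a36 was at -0.032 ± 0.19 (SE). Slc25a37 and Slc25a28, the mitoferrins that bring iron into mitochondria, had differences of -0.057 ± 0.15 and +0.050 ± 0.16 (SE). Slc25a39, a glutathione carrier, had one of +0.0050 ± 0.099 (SE), and Slc25a32, linked to folate or FAD transport, one of -0.083 ± 0.20 (SE). Of the remaining members, Slc25a46, which acts in the shaping of mitochondria, had a difference of +0.044 ± 0.15 (SE) and Slc25a51l1 one of -0.062 ± 0.19 (SE). Slc25a53 lay below the filter at 55.2 ± 31.4 in mulberry and 48.0 ± 23.5 in control livers (SD, n = 5 each).

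**Figure D3:**
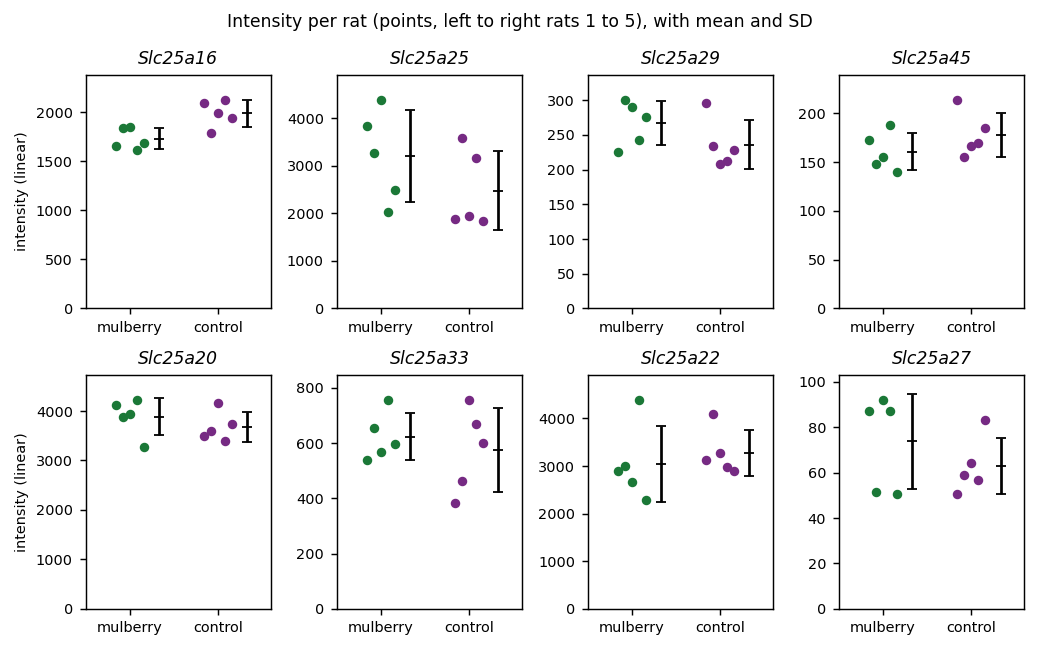
Intensity on a linear axis in each rat for the 8 Slc25 members with the smallest unadjusted limma p, with mulberry rats left of control rats, rats 1 to 5 from left to right, and bars for the mean and SD. Every panel shows overlapping groups, and for Slc25a16 3 of 5 mulberry rats lie below all control rats.

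Rats differed from one another across the family more visibly than the groups did. The median deviation of the 36 members from their mean over 10 rats was lowest in mulberry rat 1, at -0.13 log2 units, and highest in control rat 3, at +0.070. Over all genes the median deviations of these rats were +0.0088 and +0.016. Mulberry rat 1 was the highest rat for 0 members and for 8.68% of all genes. Mulberry rat 4 and control rat 3 were each highest for 8 members (22.2%), while among all genes they were highest for 11.9% and 17.1%. The same rats were also lowest for 6 members (16.7%) and 4 members (11.1%), against 17.0% and 15.7% of all genes. Control rat 1 was lowest for 9 members (25%) and for 10.2% of all genes. These shares are descriptions of single rats, and members share those rats.

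**Figure D4:**
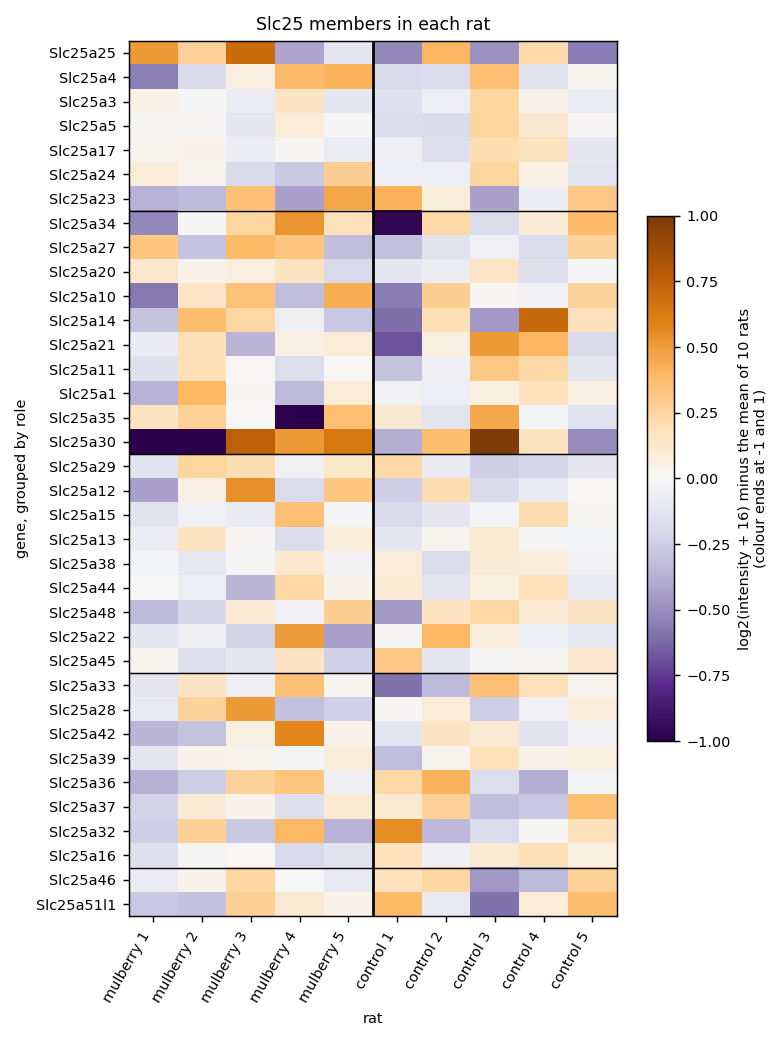
Deviation of each tested Slc25 member (down the page, grouped by role) from its mean over 10 rats, in log2(intensity + 16), for the 5 mulberry rats and then the 5 control rats. Orange is above and purple below the mean, with the scale ending at -1 and 1, and no role class is of 1 colour throughout a group, whereas Slc25a30 is below the scale's end in mulberry rats 1 and 2.

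More than a single probe set was present for 12 members, and 14 pairs of tested probe sets of the same gene were compared across the 10 rats, a comparison added after the data were seen. For Slc25a30 the pair gave Pearson r = 0.970 (permutation p = 1e-05, the smallest the resamples can give, adjusted 0.00014) and Spearman rho = 0.952 (adjusted permutation p = 0.00070), and without mulberry rats 1 and 2, the rats farthest from the median, r was 0.934 (adjusted permutation p = 0.00868). The probe set of Slc25a15 gave r of 0.962, 0.953, 0.942 and 0.877 with the 4 other tested ones of that gene (adjusted permutation p of 0.00019, 0.0012, 0.00019 and 0.0064), with rho of 0.939, 0.733, 0.927 and 0.6 in the same order. For rho, the fourth did not pass (adjusted permutation p = 0.129). A further probe set of Slc25a15 lay below the filter and was not compared. Without rat 4 of each group these r were 0.900, 0.709, 0.906 and 0.443, and the second and the fourth no longer passed on the 8 rats left, with an adjusted permutation p of 0.133 and 0.382. The pair of Slc25a10 passed for both measures (r = 0.790, rho = 0.782, adjusted permutation p of 0.013 and 0.035), but not without rat 1 of each group (r = 0.537, adjusted permutation p = 0.340). The pair of Slc25a48 passed for r alone (r = 0.713, rho = 0.636, adjusted permutation p of 0.039 and 0.109), and not without rat 1 of each group (r = 0.362, adjusted permutation p = 0.470). Pearson r did not pass for Slc25a13, Slc25a23, Slc25a32, Slc25a36, Slc25a39, Slc25a44 and Slc25a46, running from -0.129 for Slc25a13 to 0.598 for Slc25a46. Of these, Slc25a46 passed for rho (0.733, adjusted permutation p = 0.0488), and Slc25a44 passed for r with group means removed (0.736, adjusted permutation p = 0.033). The values per rat of Slc25a30 were thus repeated by a separate probe set of the same RNA. Those of Slc25a15 were repeated by the first and the third of its 4 others, whereas the second and the fourth depended on rat 4 of each group. The values per rat of Slc25a13 (r = -0.129), Slc25a36 (r = 0.086), Slc25a39 (r = 0.214) and Slc25a23 (r = 0.303) were not repeated, at spreads within groups of 0.107, 0.312, 0.145 and 0.387 log2 units in that order.

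Relations of members with 12 partner pairs were computed across the 10 rats, on the deposited scaling of the arrays alone. Slc25a3, the phosphate carrier, and Slc25a5, the ADP/ATP carrier, went together with Pearson r = 0.842 (permutation p = 0.0019, adjusted over 12 pairs 0.018). Their Spearman rho was 0.733 (adjusted permutation p = 0.119). With group means removed r was 0.842, and without mulberry rat 4 and control rat 3 it was 0.661 (permutation p = 0.078, adjusted 0.187), which no longer passed on 8 rats. Quantile normalization lowered the SE of the group difference from 0.089 to 0.061 for Slc25a3 and from 0.092 to 0.064 for Slc25a5. The part of array-wide intensity in their relation was not tested. Slc25a37 and the beta-globin gene Hbb went opposite ways, with r = -0.836 (permutation p = 0.0030, adjusted 0.018), rho = -0.903 (adjusted permutation p = 0.0098) and r = -0.842 with group means removed. Without control rats 3 and 4, r was -0.724 (permutation p = 0.042, adjusted 0.181), which no longer passed.

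Because Slc25a37 took part in that relation, its values and those of red blood cell genes are given in every rat, chosen after they were seen. Slc25a37, mitoferrin 1, had intensities of 352, 444, 423, 367 and 445 in mulberry rats 1 to 5, against 444, 501, 327, 338 and 536 in control rats 1 to 5. Control rats held both ends, with rats 2 and 5 highest and rats 3 and 4 lowest. Hbb had 24626, 23941, 23638, 26670.1 and 22391 in mulberry rats, against 18107, 16618, 28243, 28849 and 20393 in control rats, with control rats 3 and 4 at the top and 1 and 2 at the bottom. Alas2, the heme synthesis enzyme of red cell precursors, had 599, 934, 868, 696 and 735 in mulberry rats and 566, 523, 888, 1079 and 737 in control rats. Slc4a1 had 24.3, 118, 96.1, 72.4 and 94.3 in mulberry rats and 81.1, 96.6, 104, 87.9 and 106 in control rats. Its mulberry minus control difference was -0.30, against +0.15 for Hbb and +0.048 for Alas2. Of the 6 red blood cell genes listed, 3 were above the filter (Hbb, Alas2 and Slc4a1), and Epb42 was at 7.63 in mulberry and 7.89 in control livers on average. The summed intensity of the red blood cell genes, mostly that of Hbb, ran from 23229 to 27445 in mulberry rats and from 17246 to 30019.5 in control rats. The part of red blood cells in the relation was not tested. Mitoferrin 1 is known from mouse and zebrafish as the iron carrier of developing red cells.

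**Figure D5:**
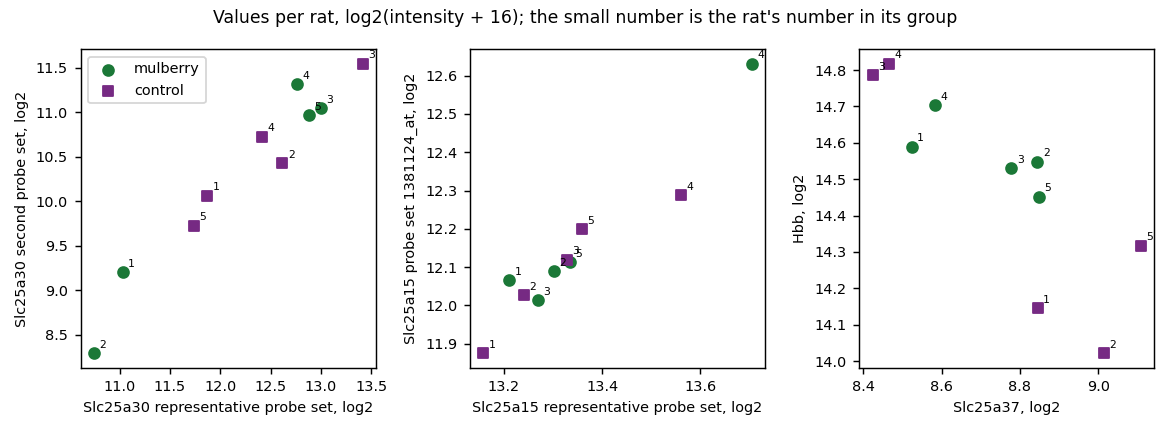
Values per rat in log2(intensity + 16) for both probe sets of Slc25a30 (left), a pair of Slc25a15 probe sets (middle) and Slc25a37 against Hbb (right), with mulberry rats as green circles, control rats as purple squares and the rat's number beside each. Pearson r over 10 rats was 0.970, 0.962 and -0.836 from left to right.

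For the other 10 pairs the adjusted permutation p lay above 0.05 for both r and rho. Slc25a1 with Srebf1, the lipogenic transcription factor, came nearest, at r = 0.704 and rho = 0.673 (permutation p of r 0.029, adjusted 0.116), with r = 0.222 without mulberry rats 1 and 4. Slc25a1 gave r = 0.107 with Acly, the enzyme that uses the exported citrate, and 0.458 with Fasn, a later enzyme of fatty acid synthesis. Slc25a10 gave 0.303 with Fasn. Slc25a20 gave r = 0.467 with Cpt1a and 0.222 with Cpt2, the carnitine acyltransferases on either side of it, with rho of 0.612 and 0.370. Without mulberry rat 5 and control rat 4 these r were 0.739 and 0.725 (permutation p of 0.011 and 0.045, adjusted 0.131 and 0.181), which did not pass after adjustment. Slc25a15 gave 0.119 with Otc and 0.218 with Cps1, the matrix enzymes of the urea cycle, Slc25a13 gave -0.520 with Ass1, and Slc25a25 gave -0.185 with the coactivator gene Ppargc1a.

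Genes that work beside the carriers were read from 11 lists, in which 0 genes passed the adjusted test. An unadjusted limma p below 0.05 was met by 0 of them, against 185 of 10328 genes (1.79%). The direction counts of all these lists stand beside 51.3% of all genes with a higher mean in mulberry livers. Genes of a list were measured in the same 10 rats, so the counts are not independent. The direction of a list was not tested. Around Slc25a20, 8 of 9 tested genes of the carnitine shuttle were higher on average, and the list's median was +0.064. The carnitine importer Slc22a5 was at +0.22 ± 0.14 and carnitine acetyltransferase, Crat, at -0.20 ± 0.15 (SE). Around Slc25a1, 8 of 9 genes of citrate export and fatty acid synthesis had a lower mean, with a median of -0.15. Malic enzyme, Me1, was at -0.17 ± 0.12 and acetyl-CoA carboxylase, Acaca, at -0.18 ± 0.14 (SE). Around Slc25a11 and Slc25a13, 2 of 6 genes of the malate-aspartate and glycerol phosphate shuttles were higher and 4 lower, with a median of -0.024, including the malate dehydrogenases Mdh1 at -0.12 ± 0.11 and Mdh2 at +0.052 ± 0.082 (SE). Around Slc25a15, 5 of 6 urea cycle genes were higher, with a median of +0.025, Asl at +0.14 ± 0.16 and Ass1 at +0.048 ± 0.11 (SE).

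Among the genes of ATP synthase, which depends on Slc25a3 and Slc25a5, 4 of 11 were higher and 7 lower, with a median of -0.0067. The inhibitor of the enzyme, Atp5if1, counted among the 11, was at -0.16 ± 0.15, and the subunit gene Atp5f1c at -0.082 ± 0.080 (SE). The import machinery that inserts carriers had 3 of 13 genes higher and 10 lower, with a median of -0.045, and its receptors Tomm20 and Tomm70 were at -0.19 ± 0.11 and -0.090 ± 0.10 (SE). The porins of the outer membrane had 2 of 3 higher, Vdac2 being at +0.032 ± 0.089 and Vdac3 at -0.020 ± 0.10 (SE). For iron and heme, which Slc25a28, Slc25a37 and Slc25a38 supply, 3 of 8 were higher, with a median of -0.040. Alas1, the first enzyme of heme synthesis in liver, had means of 10719 ± 2824 in mulberry and 15193 ± 4887 in control livers (SD, n = 5 each), with a difference of -0.49 ± 0.23 (SE) and an unadjusted limma p of 0.0564 that missed 0.05, and ferrochelatase, Fech, was at -0.12 ± 0.11 (SE).

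Other inner membrane carriers had 2 of 10 higher and 8 lower, with a median of -0.068. Sfxn5 of the sideroflexins had means of 166 ± 63.0 in mulberry and 271 ± 117 in control livers (SD, n = 5 each), a difference of -0.62 ± 0.31 (SE), and Sfxn1, the serine carrier, was at +0.15 ± 0.091 (SE). Carriers of the family that bear other symbols had 1 of 3 tested genes higher, with Ucp2, the uncoupling protein, at -0.30 ± 0.18 and Mtch2 at -0.082 ± 0.078 (SE). Regulators of mitochondrial genes had 3 of 8 higher, with a median of -0.043, Ppara at -0.59 ± 0.36 and Gabpa at -0.13 ± 0.18 (SE). The Ppara difference was -0.17 without mulberry rat 2, whose intensity of 25.8 was the lowest. None of these partner values passed the adjusted test.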

How the data were processed

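Liver RNA of 10 rats, 5 mulberry and 5 control, was labelled with biotin and hybridised to 1 Affymetrix array each, per the labels' protocols. The authors' deposited value table holds linear intensity per probe set, and MAS5 and affy are named without versions in the submitters' processing notes. Every array having the same trimmed mean, the intensities were taken as scaled by array, and detection calls were not used here. After removal of 57 control probe sets, 31042 remained, of which 20826 had 1 gene symbol in the platform annotation, 436 several and 9780 none. The deposited intensities were turned into log2(intensity + 16), and probe sets with a mean at or below the 40th percentile (an intensity of about 61.1) were left out, leaving 18625. limma 3.58.1 in R 4.3.3 (lmFit, eBayes with trend, 2-sided, no covariates, Benjamini-Hochberg over all 18625) compared mulberry with control, and was tested on simulated data. Fold changes on this scale understate those of dim genes.

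Members and gene lists were chosen with earlier results of these data known. All members are named; values of every rat are given for the 8 with the smallest unadjusted p and for 8 main carriers of liver metabolism, and each partner list gives its 2 genes of smallest p. Slc25a47, also in that rule, was not analysed here, nor were 2 Slc25 probe sets with several symbols. Correlations used permutation tests (100000 resamples, 2-sided, Python 3.11.15, scipy 1.17.1) with Benjamini-Hochberg adjustment within each family of pairs. Alternatives were the pseudocount (1 or 64), the filter (none or the 60th percentile), scaling by quantiles or by each array's median, a fit lacking the variance trend, weighting of arrays, a replicate block, another probe set of the gene and leaving out each rat. Precision is limited by the number of arrays, and nothing in the labels says how the rats were housed or when arrays were scanned.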

Additional observations from a re-analysis of the deposited data

Results flagged for a closer look

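Among 124 groups of 5 rats, each a member or a named partner gene in mulberry or control livers, 8 held a rat whose gap to its nearest neighbour took up an unusually large share of the group's range on the log2 scale by Dixon's criterion. Chance gives about 1 such group in 20.

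Mulberry rat 4 was the highest of its group for Slc25a15, at 13338 with the others at 9468 to 10307 (share 0.752), and the lowest for Slc25a35, at 20.7 with the others at 62.1 to 84.2 (share 0.752). Control rat 1 was lowest for Slc25a48, at 331 with the others at 497 to 547 (share 0.809). For Slc25a53, below the filter, control rat 5 was lowest, at 7.07 with the others at 51.3 to 66.0 (share 0.843). Among partner genes, control rat 5 was lowest for Me1, at 780.2 with the others at 977 to 1054 (share 0.747), and mulberry rat 2 was lowest for Ppara, at 25.8 with the others at 130.03 to 183 (share 0.801). Vdac2 had mulberry rat 3 lowest, at 5862 with the others at 6423 to 6572 (share 0.799), and control rat 3 highest, at 7554 with the others at 5833 to 6086 (share 0.836).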

How the results depend on the processing

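No member and no partner gene named passed the adjusted threshold under any alternative. The count of members with an unadjusted p below 0.05, 1 in the reported fit, was 0 with a median shift, without the variance trend, with array weights and with the replicate block, and ran from 0 to 2 when 1 rat was left out. Slc25a16 was lower in mulberry livers under all 19 of its alternatives, at -0.24 to -0.17, with unadjusted limma p from 0.0295 to 0.0982. This p was below 0.05 in 8 of them, of which 3 were among the 10 that left out a rat. Deviations of rats of the same number correlated at 0.096, -0.200, -0.326, 0.067 and 0.086, weakly positive for rats 1, 4 and 5 and negative for rats 2 and 3. The numbers were therefore not taken as pairs, and only mulberry rat 1 correlated best with the control rat of its own number. Of 1105 values of single genes, 1008 kept their direction and 97 turned, 76 of them with a rat left out. The direction held throughout for 10 members (Slc25a12, Slc25a16, Slc25a20, Slc25a22, Slc25a23, Slc25a25, Slc25a27, Slc25a29, Slc25a33 and Slc25a45), though the size did not: with a rat left out Slc25a12 ran from +0.0043 to +0.25, Slc25a20 from +0.049 to +0.14, Slc25a22 from -0.27 to -0.033, Slc25a23 from -0.26 to -0.033, Slc25a25 from +0.24 to +0.52, Slc25a27 from +0.093 to +0.27, Slc25a29 from +0.13 to +0.25, Slc25a33 from +0.014 to +0.25 and Slc25a45 from -0.19 to -0.070. Among partner genes with large differences, Ppara ran from -0.74 to -0.17, Sfxn5 from -0.84 to -0.47, Alas1 from -0.61 to -0.32 and Ucp2 from -0.41 to -0.17. The number of members with a higher mean, 15 in the reported fit, was 11 with a median shift and 20 with array weights. The median of all probe sets was +0.0075 in the reported fit, -0.0016 with quantile normalization and -0.020 with a median shift. The median of the members was -0.012, -0.023 and -0.040 in the same order. The cause of each turn was not tested.

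Directions turned as follows: for Slc25a3 at +0.0094 with quantile normalization and +0.024 with array weights, for Slc25a5 at +0.039, Slc25a11 at +0.044, Slc25a17 at +0.022, Slc25a21 at +0.079, Slc25a24 at +0.061, Slc25a35 at +0.065 and Slc25a46 at -0.074 with array weights, for Slc25a10 at -0.016 and Slc25a39 at -0.023 with a median shift, and for Slc25a42 at -0.0055 with a median shift and -0.021 with array weights. Slc25a13 was at -0.0016 with quantile normalization and -0.028 with a median shift, Slc25a14 at +0.0024 with a pseudocount of 1, and Vdac3 at +0.0032 with quantile normalization and +0.026 with array weights. Another probe set gave +0.16 for Slc25a44, -0.075 for Slc25a46 and +0.068 for Slc25a48. Without the pair of rats farthest from the median, 0 of 12 pairs passed, against 2, and r turned to -0.091 for Slc25a1 with Fasn, -0.682 and -0.198 for Slc25a15 with Otc and Cps1, +0.030 for Slc25a25 with Ppargc1a, and 0.164, -0.138 and -0.615 for the probe sets of Slc25a13, Slc25a23 and Slc25a36.

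With a single rat left out, differences that changed sign ran as follows: Slc25a1 from -0.19 to +0.00043, Slc25a3 from -0.039 to +0.059, Slc25a4 from -0.051 to +0.19, Slc25a5 from -0.053 to +0.058, Slc25a10 from -0.13 to +0.16, Slc25a11 from -0.12 to +0.033, Slc25a13 from -0.040 to +0.044, Slc25a14 from -0.16 to +0.17, Slc25a15 from -0.050 to +0.093, Slc25a17 from -0.067 to +0.023, Slc25a21 from -0.21 to +0.082, Slc25a24 from -0.10 to +0.038, Slc25a28 from -0.070 to +0.13, Slc25a30 from -0.55 to +0.0074, Slc25a32 from -0.19 to +0.044, Slc25a34 from -0.042 to +0.33, Slc25a35 from -0.16 to +0.14, Slc25a36 from -0.13 to +0.068, Slc25a37 from -0.14 to +0.028, Slc25a38 from -0.064 to +0.0052, Slc25a39 from -0.075 to +0.052, Slc25a42 from -0.12 to +0.11, Slc25a44 from -0.12 to +0.025, Slc25a46 from -0.066 to +0.12, Slc25a51l1 from -0.22 to +0.027, Ass1 from -0.022 to +0.10 and Vdac3 from -0.088 to +0.048.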
